A study of Mus musculus with 6 samples.

Results

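Angiopoietin-like proteins are secreted glycoproteins that resemble the angiopoietins, the growth factors of blood vessels, in their domains but do not bind the same receptors. Several of them act on lipid traffic: ANGPTL4 blocks lipoprotein lipase (LPL), the enzyme on capillary walls that releases fatty acids from circulating triglyceride, and ANGPTL8 changes how that blockade works by forming complexes with other members. *Angptl4* is known as a gene of the fasted state and of PPAR and glucocorticoid signalling, and *Angptl8* as a gene that feeding and insulin raise in liver and fat. The values described here are those of the family in mouse dorsal skin. The genes were named by family, *Angptl1*, *Angptl2*, *Angptl4*, *Angptl6*, *Angptl7* and *Angptl8*, but the family itself was picked from the genotype contrast, in which *Angptl8* had already been seen to be higher. The genotype differences of its members are therefore given as descriptions, and where members past a threshold are counted, the count too is a description and not a test of the family. Of these 6 genes, 5 have a probe set of their own in the platform annotation, out of 19938 genes that do. *Angptl2* has no probe set that names it alone and is not analysed here.

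Whole dorsal skin was taken from 3 Bmal1+/- mice, which keep 1 intact allele of the clock gene *Bmal1* and served as controls, and from 3 Bmal1-/- littermates, in which the gene is disrupted in every cell. The labels give postnatal day 22 for all 6 mice, but for Bmal1+/- replicate 1 they also give day 23 in another field. This mouse is the only male and the other 5 are female. The labels stage all of them as telogen, when hair follicles rest. The line was kept on a C57BL/6J background. The RNA of each mouse was hybridised to its own Affymetrix mouse gene array. Each file gives 1 linear intensity for every probe set, and the median of these lay between 219 and 235.5 on the 6 arrays. Differences are given as log2(intensity + 16), Bmal1-/- minus Bmal1+/-, so that the difference of a dim gene is understated. Their standard errors come from a limma fit over all 23410 probe sets with a gene symbol, in which the median difference was 0.014. Intensities of different probe sets are not on a common scale, so that levels are compared between mice and not between genes. In bulk skin, fewer cells of a type and less RNA per cell cannot be told apart.

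*Angptl8* was the member with the largest difference between the genotypes. The Bmal1+/- mice had intensities of 114, 157 and 111 (probe set 10583753), and their Bmal1-/- littermates had 391, 522 and 314. Every Bmal1-/- mouse was above every Bmal1+/- mouse, and the nearest pair of mice across the genotypes was 0.93 apart on the log2 scale. The means were 127 ± 25.6 and 409 ± 105 (SD, n = 3 mice each), a ratio of 3.22, and the log2 difference was 1.56 (SE 0.18). The relative spread between mice was much alike in both groups, with a coefficient of variation of 20.2% in Bmal1+/- and 25.8% in Bmal1-/- skin. Leaving out each mouse in turn gave log2 differences of 1.37 to 1.72. The deposited values used here carry no detection call, the 3 Bmal1+/- values lie below the median intensity of their arrays, and whether they are above background was not tested, so that 3.22 is a ratio of the intensities as deposited.

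*Angptl1*, a secreted relative of the angiopoietins, differed the other way. Control mice had 601, 1048 and 1002 (probe set 10350840), where mice without *Bmal1* had 403, 438 and 476. The groups did not overlap, and the Bmal1+/- mouse closest to the Bmal1-/- mice, 0.33 away on the log2 scale, was the male, replicate 1. The means were 884 ± 246 and 439 ± 36.3 (SD, n = 3 each), so that the Bmal1+/- mean was 2.01 times the Bmal1-/- mean, and the log2 difference was −0.94 (SE 0.18). Most of the spread in Bmal1+/- skin lay between the male, at 601, and the pair of females, at a mean of 1025. Among female mice alone the log2 difference was −1.20, and with a female Bmal1+/- mouse left out it was −0.80 or −0.84. Sex, the day that the labels give differently, and the individual cannot be told apart in this mouse.

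**Figure D1:**
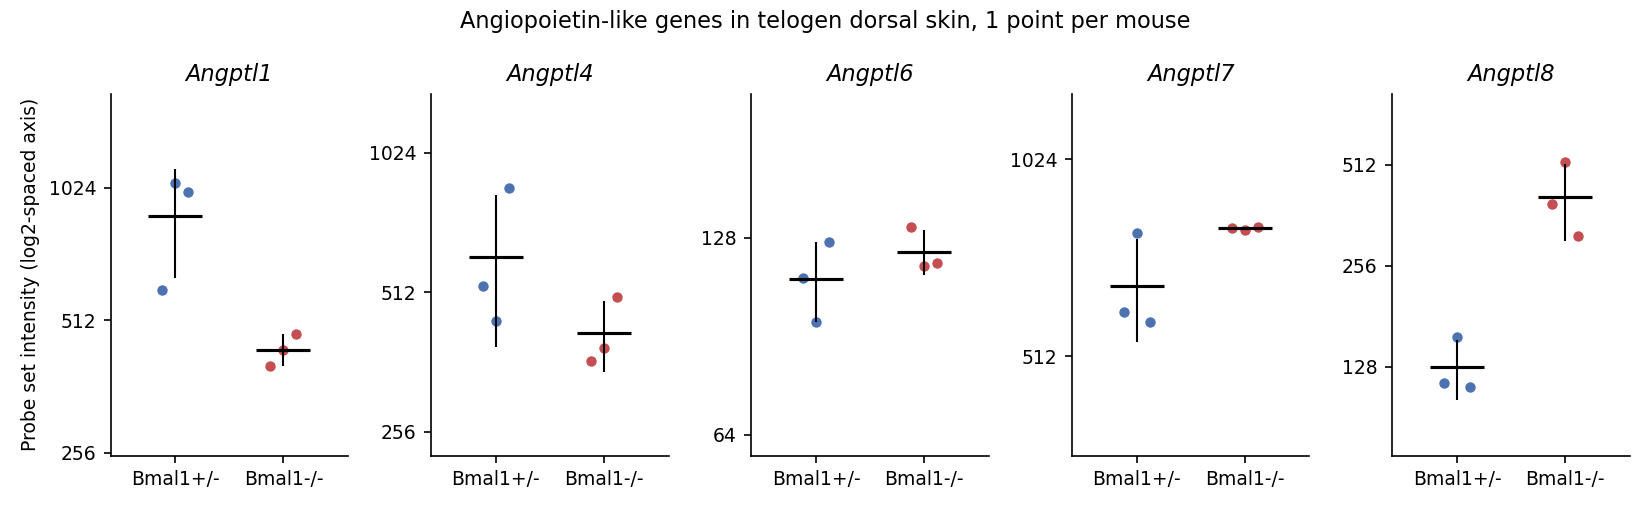
Intensity on a log2-spaced vertical axis, scaled separately for each gene, of the 5 measured angiopoietin-like genes with 1 point per mouse, and lines for the mean (horizontal) and SD (vertical) per genotype, n = 3. For *Angptl8* the Bmal1-/- mice lie at 314 to 522 above all Bmal1+/- mice, for *Angptl1* they lie at 403 to 476 below all of them, and for *Angptl4* and *Angptl6* the genotypes overlap.

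*Angptl4*, the LPL inhibitor that is released by adipocytes and other cells during fasting, varied widely among the Bmal1+/- mice, which spanned 0.93 on the log2 scale, against 0.44 among the Bmal1-/- mice. Control mice were at 527, 443 and 858 (probe set 10450038), while mice without *Bmal1* were at 364, 389 and 500. Both Bmal1-/- replicates 1 and 2 were below all Bmal1+/- mice, while replicate 3 was above Bmal1+/- replicate 2, so that the groups overlapped. The means were 609 ± 220 and 418 ± 72 (SD, n = 3 each), a log2 difference of −0.48 (SE 0.21). The size of this difference rested on single Bmal1+/- mice. Without replicate 3, the mouse at 858, it was −0.21, and without replicate 2 it was −0.68.

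*Angptl7*, a secreted protein best known from the cornea and other matrix-rich tissue of the eye, read 599, 790 and 578 in controls, where Bmal1-/- skin read 805, 799 and 806 (probe set 10518526). The groups did not overlap, but the gap between the nearest mice of the genotypes was only 0.016 on the log2 scale. The log2 difference was 0.30 (SE 0.11), and 0.22 to 0.44 with 1 mouse left out. The 3 Bmal1-/- values lay within a coefficient of variation of 0.488%, against 17.8% in Bmal1+/- skin. *Angptl6*, a secreted growth factor that acts on keratinocytes and vessels when it is overproduced in skin, had the lowest difference in size. Controls read 111, 95.2 and 126 (probe set 10591350) where Bmal1-/- skin read 133, 116 and 117, the groups overlapped, and the log2 difference was 0.12 (SE 0.12). These values too were not tested against background.

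The members thus did not share a direction. In non-overlapping groups, 2 of 5 were higher and 1 was lower in Bmal1-/- skin, while over all probe sets tested 6.99% were higher and 7.68% lower without overlap. At an adjusted p under 0.05 from limma, 1 of 5 was higher and none was lower, where 0.0982% of all probe sets were higher, 0.132% were lower and 0.231% were either. Since the family was taken up because of this contrast, nothing is read from these shares.

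Several of the genes lie inside or across other genes, which allows a comparison within each locus. In the RefSeq gene table (GRCm38.p6), *Angptl8* lies within *Dock6*, which encodes a guanine nucleotide exchange factor, *Angptl1* within *Ralgps2* and *Angptl7* within *Mtor*. In each of these 3 pairs the inner gene is on the opposite strand to the outer gene, as given by the RefSeq promoter table. *Angptl6* overlaps the end of *Shfl*, and *Angptl4* overlaps no other gene. None of these family genes is on the chromosome of *Bmal1* (listed as *Arntl*). The outer genes were not used to choose the family and were tested. *Dock6* has 15 probe sets. Their log2 differences ran from −0.067 to 0.18 with a median of 0.058, and their 95% confidence intervals all lay between −0.25 and 0.31, beside the 1.56 of *Angptl8*. None of the 15 passed the test (lowest adjusted p = 0.45 from limma), and at an unadjusted p under 0.05 there was 1, where 8.77% of all probe sets were. *Ralgps2* averaged 713 ± 13.9 in controls against 688 ± 62.2 (SD, n = 3 per genotype), with a log2 difference of −0.055 (SE 0.076, adjusted p = 0.87 from limma). *Mtor*, the kinase of nutrient signalling, had a log2 difference of −0.014 (SE 0.061), with a 95% confidence interval of −0.15 to 0.12. *Shfl*, an interferon-induced antiviral gene, had a log2 difference of −0.17 (SE 0.088).

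**Figure D2:**
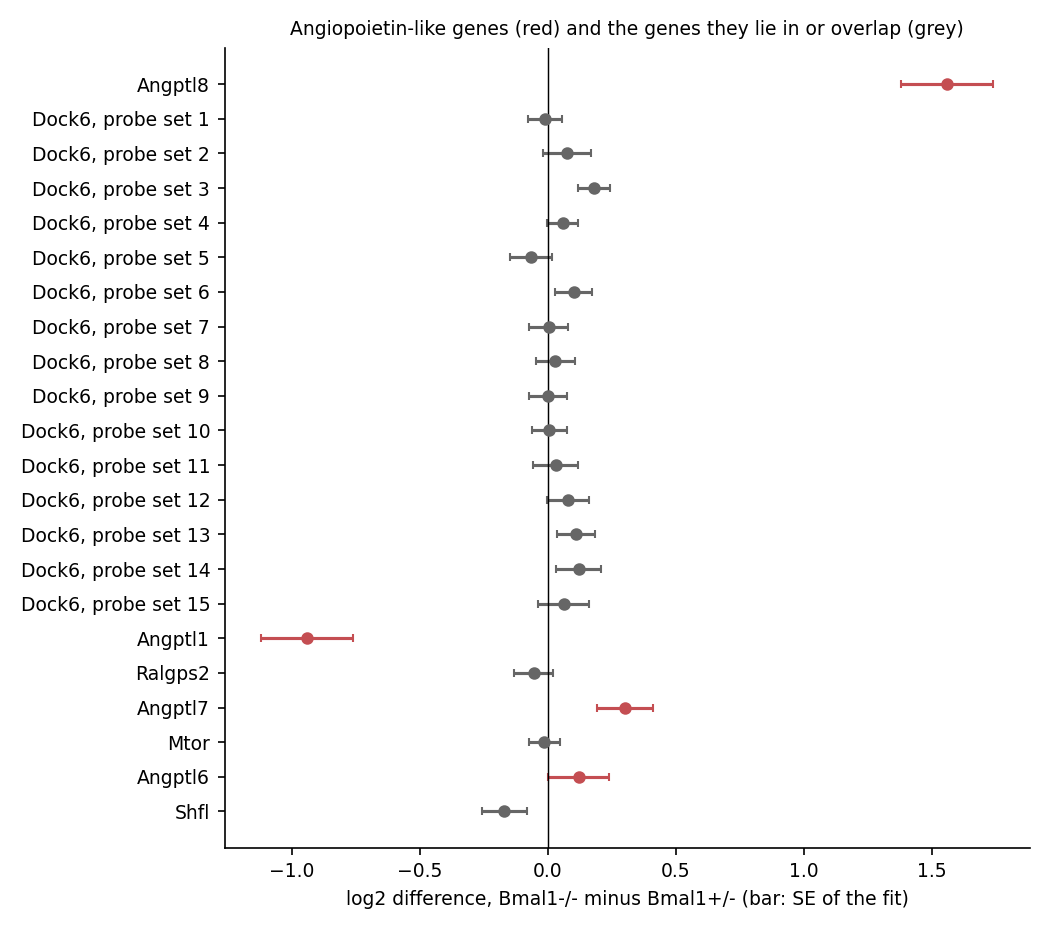
Log2 difference, Bmal1-/- minus Bmal1+/- (horizontal axis), with the standard error of the fit (bars), for *Angptl8* and the 15 probe sets of *Dock6*, and for *Angptl1*, *Angptl7* and *Angptl6*, each above the gene it lies in or overlaps. *Angptl8* stands at 1.56 and *Angptl1* at −0.94, while the *Dock6* probe sets lie between −0.067 and 0.18 and *Ralgps2* at −0.055.

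The comparison was widened to the 4 nearest protein-coding genes of each measured member, a choice made after the values had been seen. Of these 20 genes, 17 have a probe set of their own. None passed the test (limma, lowest adjusted p = 0.59), none was at an unadjusted p under 0.05, and the Cyber-T type test, a regularised test that borrows variance from probe sets of like intensity, called none. The log2 differences ran from −0.21 for *Srm*, near *Angptl7*, to 0.17 for *Kank2*, near *Angptl8*. *Kank2* read 467, 504 and 439 in controls against 569, 510 and 511 without *Bmal1*, and its log2 difference had a 95% confidence interval of −0.0049 to 0.34. *Rab3d* and *Spc24*, the next genes from *Angptl8*, had log2 differences of −0.029 and −0.17. Beside *Angptl4*, *Rab11b*, a small GTPase of vesicle traffic, had −0.0015, *Kank3* 0.072 and *Ndufa7* 0.11.

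The 250 bases before the annotated start of *Angptl8* and of *Angptl1*, the members whose values stood furthest apart between the genotypes, are shown from the RefSeq promoter table (GRCm38.p6), 5′ to 3′ on the strand of the gene. The first lies at chr9:21835260-21835509 and the second at chr1:156838773-156839022, both on the plus strand. Capitals mark the letters GGTCA on either strand, a shorter run that ends the core of the ROR response element (RRE) described below. Neither window holds the RRE core itself.

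*Angptl8*: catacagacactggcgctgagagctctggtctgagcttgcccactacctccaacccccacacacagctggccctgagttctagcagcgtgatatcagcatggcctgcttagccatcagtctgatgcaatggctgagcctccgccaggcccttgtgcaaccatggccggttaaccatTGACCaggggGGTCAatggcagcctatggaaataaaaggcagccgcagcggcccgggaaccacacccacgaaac
*Angptl1*: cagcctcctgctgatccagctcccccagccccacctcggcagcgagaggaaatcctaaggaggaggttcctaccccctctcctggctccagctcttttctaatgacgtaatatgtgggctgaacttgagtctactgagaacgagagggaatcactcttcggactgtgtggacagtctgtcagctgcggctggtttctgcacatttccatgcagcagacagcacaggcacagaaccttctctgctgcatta

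Motifs of the circadian transcriptional circuit were searched on both strands in these windows and in those of *Angptl2*, *Angptl6* and *Angptl7*, of which the table holds 1 each. The E-box CACGTG, the E′-box CACGTT, the D-box TTANNTAA and the RRE core TAGGTCA or TGGGTCA were in none of the 5 windows. Of 32851 windows of the same length, 6.02% hold the E-box, 3.85% the E′-box, 5.43% the D-box and 5.38% the RRE core. The shorter GGTCA, which ends the RRE core and so overlaps it, was added once the letters had been read. It occurs 2 times in the *Angptl8* window, starting 74 bases before the start on the minus strand and 64 bases before it on the plus strand, 1 time in that of *Angptl7* and not in that of *Angptl1*. At least 1 such match to GGTCA is in 35.2% of all windows. A match in these letters is a description of the window and not a binding site, and a window without one says nothing of sites further away.

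The genes that act with the family were examined next, in 5 lists of which 90 genes were measured. At an adjusted p under 0.05 from limma, none of the 90 rose or fell, and the Cyber-T type test called none either. At an unadjusted p under 0.05 from limma there were 18, or 20%, where 8.77% of all probe sets were. The lists were chosen with earlier results of these data known, and each of the 90 is the brightest probe set of its gene. Nothing is therefore read from this share. *Lpl* itself averaged 3498 ± 541 in controls against 3710 ± 270 without *Bmal1* (SD, n = 3 mice per genotype), a log2 difference of 0.093 (SE 0.10, adjusted p = 0.83 from limma). *Gpihbp1*, which carries LPL to the capillary lumen and anchors it there, had 378 ± 38.2 and 440 ± 65.2, a log2 difference of 0.21 (SE 0.11). *Lmf1*, which LPL needs to fold, had a log2 difference of −0.032. These 3 genes are named for their roles although the rule for named genes did not take them.

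Of the 21 measured genes of LPL and its partners, 12 had a difference above 0 and 9 below it, with a median of 0.039. The largest differences were those of *Apoc3*, an apolipoprotein that restrains LPL (0.60, SE 0.26, adjusted p = 0.56 from limma), and of *Apoa5*, an apolipoprotein that favours it (0.24, SE 0.11, adjusted p = 0.59). In both the genotypes overlapped, and both rested in part on Bmal1-/- replicate 1, in which *Apoc3* read 398 against 163 and 194 in the others. Without this mouse the log2 difference was 0.23 for *Apoc3* and 0.15 for *Apoa5*. *Pcsk6* and *Pcsk5*, which encode proprotein convertases able to cleave secreted proteins, had log2 differences of −0.22 and −0.20 at an unadjusted p of 0.018 and 0.042. Among the 12 angiopoietins and receptors, the median was 0.031 and no gene was at an unadjusted p under 0.05. *Tek*, the angiopoietin receptor of endothelium, had the largest difference of that list (0.23, SE 0.11, adjusted p = 0.59, but 0.10 without Bmal1-/- replicate 3), and *Itgb1*, the integrin beta chain of several receptors, had −0.10 (SE 0.051, adjusted p = 0.62).

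Of the 15 measured fasting and PPAR target genes, 12 had a difference above 0, with a median of 0.23, and of the 22 feeding and insulin response genes 17 did, with a median of 0.16, against 0.014 over all probe sets. Among the fasting genes, *Acadm* (0.33), *Hadhb* (0.39) and *Hadha* (0.26) were higher without overlap of the groups, and *Ehhadh* (−0.24) was lower. Their unadjusted p from limma was 0.0052, 0.012, 0.035 and 0.023, and the lowest adjusted p of that list was 0.3. *Pdk4*, a kinase that shuts pyruvate out of oxidation during fasting, read 355, 925 and 1082 in controls, whereas skin without *Bmal1* read 395, 1433 and 3548. The Bmal1-/- mice thus spanned 3.12 on the log2 scale, against 0.71 for *Angptl8*, and the genotypes overlapped (log2 difference 0.82, SE 0.67, adjusted p = 0.76 from limma). *Fabp3*, a fatty acid binding protein of oxidative tissue, had 758, 1338 and 1710 against 1164, 1913 and 4478 (log2 difference 0.83, SE 0.43, adjusted p = 0.63). *Thrsp*, a lipogenic gene raised by feeding, read 1454, 2783 and 1153 in controls, against 4606, 2551 and 1991 without *Bmal1* (log2 difference 0.77, SE 0.34, adjusted p = 0.57). *Lpin1*, which makes diacylglycerol, had a log2 difference of 0.44 (SE 0.13, adjusted p = 0.37). Single mice carried much of the differences of *Pdk4*, *Fabp3* and *Thrsp*, while that of *Lpin1* was 0.34 to 0.59 with 1 mouse left out. Without Bmal1-/- replicate 3 the log2 difference was 0.087 for *Pdk4* and 0.31 for *Fabp3*, without Bmal1+/- replicate 1 it was 0.34 and 0.51, and without Bmal1-/- replicate 1 it was 1.65 and 1.27. For *Thrsp* it was 0.43 without Bmal1-/- replicate 1 and 0.50 without Bmal1+/- replicate 3. In Bmal1-/- skin the mouse with the lowest *Pdk4* and the highest *Thrsp*, replicate 1, had an *Angptl8* intensity of 391, between the values of the others. In Bmal1+/- skin *Angptl8*, at 114, 157 and 111, had the same order of mice as *Thrsp*. Both were highest in replicate 2 and lowest in replicate 3, the mouse with the highest *Pdk4* of that genotype. The part of feeding state in the *Angptl8* and *Angptl4* values was not tested.

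**Figure D3:**
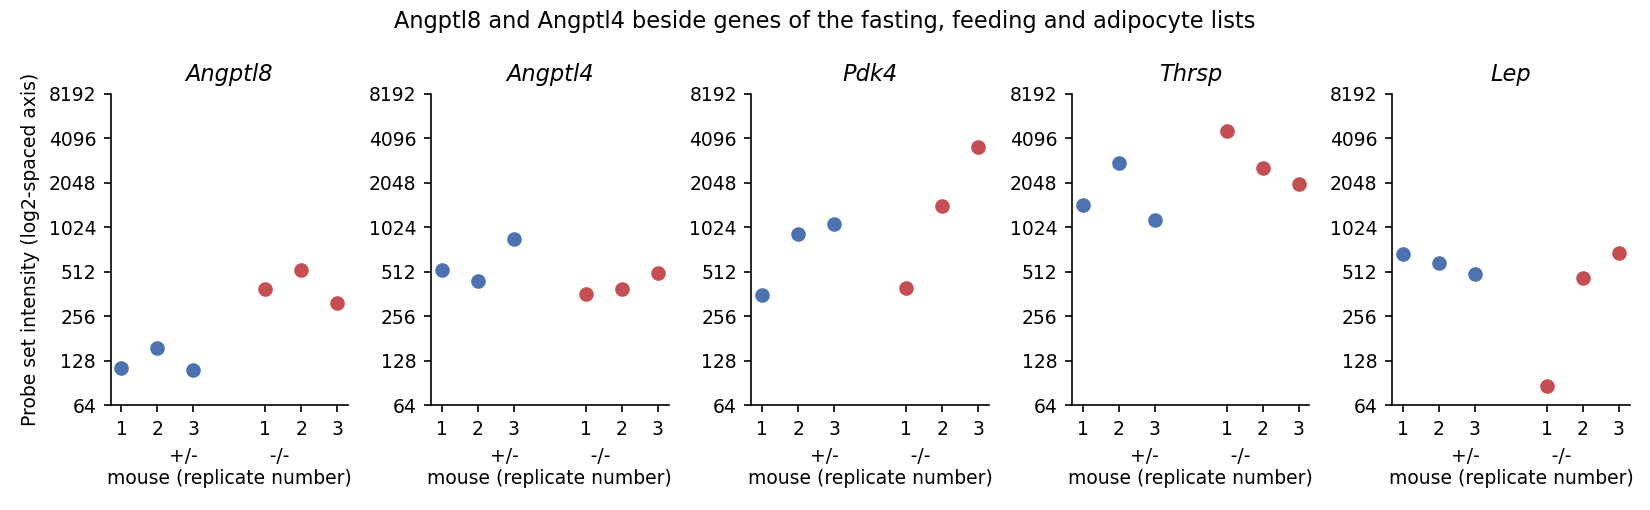
Intensity on a log2-spaced vertical axis, the same for all panels, of *Angptl8*, *Angptl4*, *Pdk4*, *Thrsp* and *Lep* in each of the 3 Bmal1+/- (blue) and 3 Bmal1-/- mice (red), in the same order of replicate numbers in each panel. Among the Bmal1-/- mice *Pdk4* runs from 395 to 3548, *Lep* from 86.3 to 689 and *Angptl8* from 314 to 522. Among the Bmal1+/- mice *Angptl8* and *Thrsp* are both highest in replicate 2.

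Of the 20 measured regulators of *Angptl4* and *Angptl8* transcription, 10 were above and 10 below 0, with a median of −0.0075. *Pparg*, the nuclear receptor that drives adipocyte genes and *Angptl4*, read 1147, 1270 and 1155 in controls and 1454, 1379 and 1437 in skin without *Bmal1*. The groups did not overlap, and the log2 difference of 0.26 (SE 0.062) did not pass over all probe sets (adjusted p = 0.22 from limma). *Thra*, the thyroid hormone receptor alpha, had 0.32 (SE 0.079, adjusted p = 0.22) without overlap of the groups. These were the largest differences of the list. At an unadjusted p under 0.05 from limma, 3 of the regulators were higher and 2 lower. The lower 2 were *Hif1a* (−0.19) and the glucocorticoid receptor *Nr3c1* (−0.16), both without overlap of the groups.

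**Figure D4:**
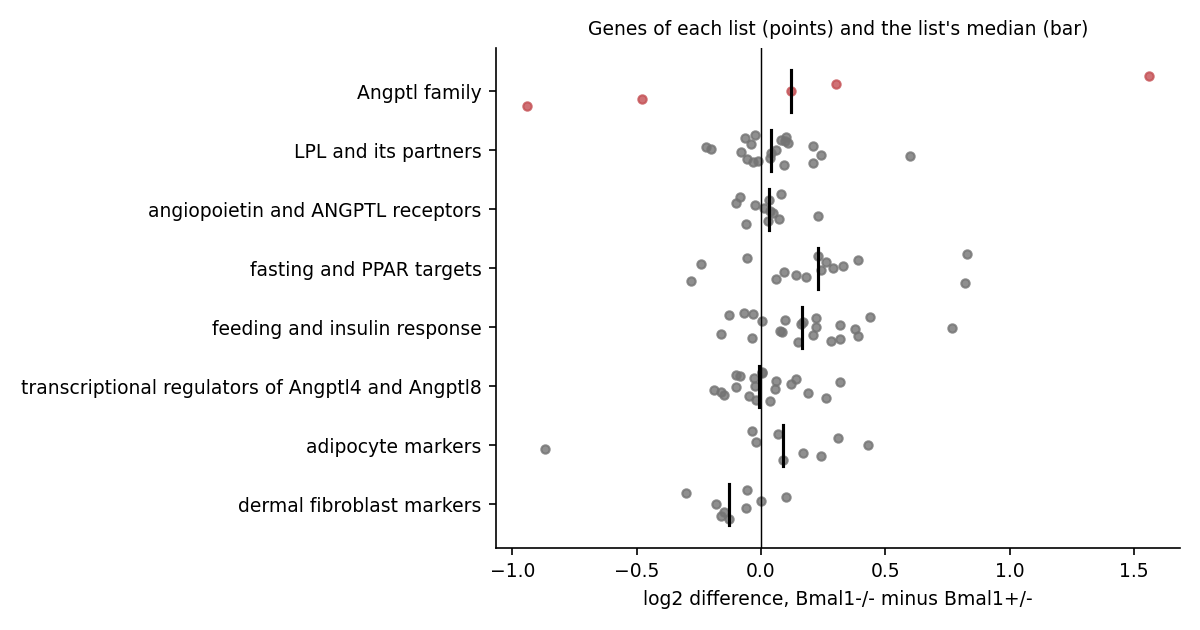
Log2 difference, Bmal1-/- minus Bmal1+/- (horizontal axis), of each measured gene (points) of the angiopoietin-like family, of the 5 lists of related genes and of 2 marker lists, with the median of each (bars). The family runs from −0.94 to 1.56, and the medians of the 5 lists lie between −0.0075 and 0.23.

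Markers of the cell types that skin can hold were read beside these values. The 9 measured adipocyte markers had a median log2 difference of 0.090, and their summed intensity was 28738 to 31210 in Bmal1+/- and 28638 to 33571 in Bmal1-/- mice, so that the groups overlapped. Sums of this kind, here and for the lists below, weigh the brightest probe sets most and do not measure cell content. In the adipocyte sum *Car3* read 12298 to 13081 over the 6 mice. Of the 9 markers, 6 were above 0 and 3 below it. *Pnpla2* (0.31, unadjusted p = 0.022 from limma) was higher without overlap of the groups, and *Car3* (−0.037) was lower without overlap. *Retn* (0.43) and *Plin1* (0.24) were higher with overlap. *Adipoq*, the adipocyte hormone adiponectin, had a log2 difference of 0.090, while *Lep*, the hormone leptin, was at 86.3 in Bmal1-/- replicate 1 and at 467 to 689 in the other 5 mice. The difference of 0.87 in size for *Lep* (−0.87, SE 0.56) was the largest of that list and was −0.029 without Bmal1-/- replicate 1. The part of adipocyte content in the *Angptl8* values was not tested. Of the 9 measured dermal fibroblast markers, 7 were lower, with a median of −0.13, beside the −0.94 of *Angptl1*. Their summed intensity was 73946 to 81195 in Bmal1+/- and 67960 to 75119 in Bmal1-/- mice. *Dpt*, a dermal matrix protein, came nearest to passing in that list (log2 difference −0.30, SE 0.060, adjusted p = 0.12 from limma), and the Cyber-T type test called 1 of the 9. The part of fibroblast content in the *Angptl1* values was not tested. The 10 endothelial markers were all above 0, with a median of 0.099, summing to 5494 to 5960 in Bmal1+/- and 5784 to 7306 in Bmal1-/- mice. Medians were −0.093 for 8 keratinocyte, −0.019 for 10 striated muscle, −0.083 for 9 sebocyte, −0.12 for 10 macrophage and 0.13 for 10 hepatocyte markers, and no marker of any list passed over all probe sets. Keratinocyte markers summed to 53959 to 62699 over the 6 arrays. No listed marker was under an intensity of 16 on all arrays.

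The genes whose values over the 6 mice were most like those of *Angptl8* were found by Pearson's r on the log2 scale among 244 candidates, those with a mean intensity of at least 100 and a range of at least 1. They were *Prss55*, a serine protease (r = 0.945), *Cry1*, a repressor of the circadian clock (0.944), *Arhgap20*, a GTPase activating protein (0.936), *Spon2*, a matrix protein (0.931), and *Ppp1r3c*, which targets protein phosphatase to glycogen (0.918). All 5 were higher in every Bmal1-/- mouse than in any Bmal1+/- mouse, and a gene with a clean difference in the same direction has a high r over 6 arrays that are split 3 and 3. Once the mean of each genotype had been removed, r with *Angptl8* was 0.378 for *Prss55*, −0.413 for *Cry1*, 0.245 for *Arhgap20*, −0.057 for *Spon2* and −0.033 for *Ppp1r3c*. *Prss55* read 47.9, 79.3 and 41.7 in controls against 178, 182 and 207 without *Bmal1*, a log2 difference of 1.53, and *Cry1* had 464, 457 and 443 against 1053, 995 and 1041, a log2 difference of 1.15.

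**Figure D5:**
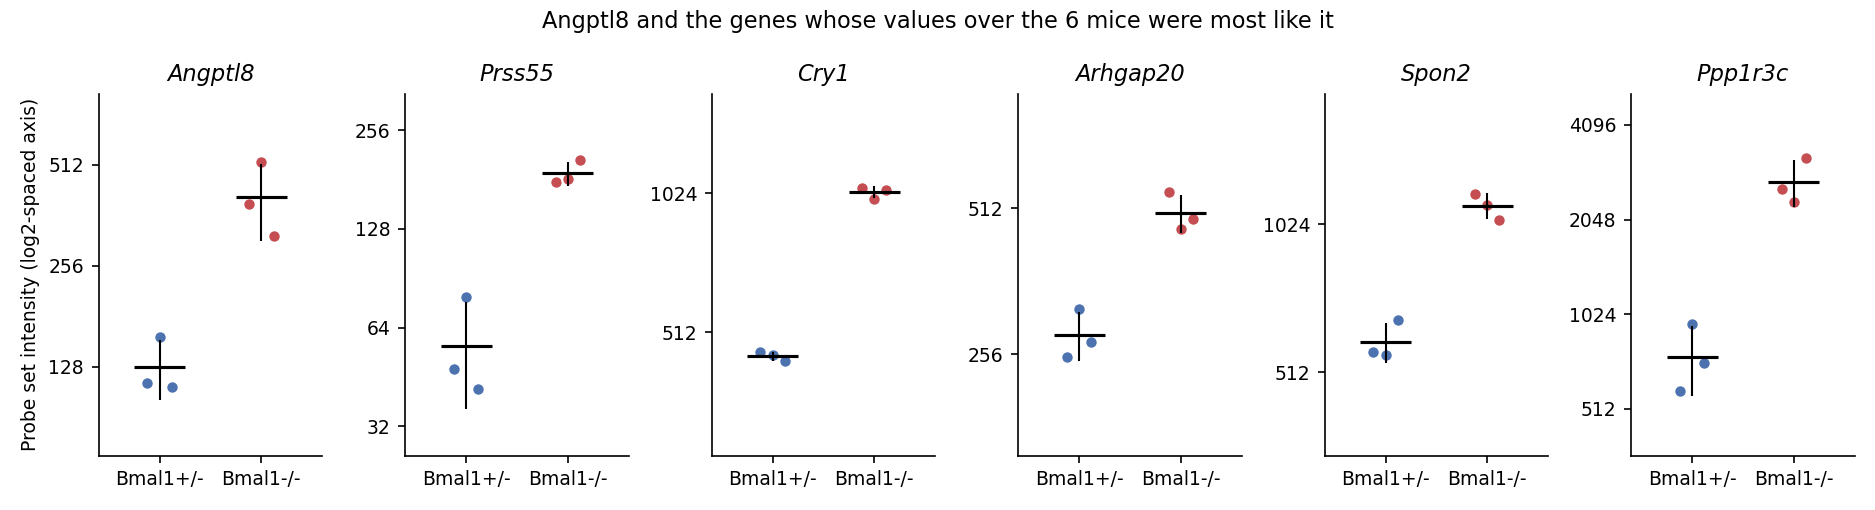
Intensity on a log2-spaced vertical axis, scaled separately for each gene, of *Angptl8* and the 5 genes with the highest Pearson's r with it over the 6 mice, with 1 point per mouse and lines for mean and SD per genotype, n = 3. In all 6 genes the Bmal1-/- mice lie above the Bmal1+/- mice, by a log2 difference of 0.81 for *Arhgap20* to 1.84 for *Ppp1r3c*.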

How the data were processed

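RNA from dorsal skin of 6 mice was hybridised to Affymetrix Mouse Gene 1.0 ST arrays. The authors deposited linear probe set intensities, and the submitters' processing notes name PLIER 2.0 and Affymetrix Expression Console 1.1. How the arrays were normalized to each other is not stated. Precision is limited by the 3 arrays per genotype. From the deposited intensities, log2(intensity + 16) was fitted with limma 3.58.1 (lmFit, then eBayes with an intensity trend, in R 4.3.3) on 23410 probe sets with a symbol, and p-values were adjusted by Benjamini-Hochberg over all of them. A gene was represented by the brightest probe set that names it alone. Both limma and the Cyber-T type test were run on simulated data with known changes, where a larger share of the Cyber-T type calls than of the limma calls was false. The labels call the mice of a genotype biological replicates. Members and lists were chosen with earlier results of these data known. Named genes were all members, the 2 largest differences of each list without a call, the listed host and neighbouring genes, and the 5 genes most like *Angptl8*; others are named for their role or place, or after their values were seen. Alternatives were 16 other settings of the fit, among them a Cyber-T type test (window 101, prior weight 10), and an unadjusted threshold of 0.001.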

Additional observations from a re-analysis of the deposited data

How the results depend on the processing

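The log2 differences of all 5 members kept their direction under the 16 other settings of the fit, from 1.29 to 1.72 for *Angptl8*, −1.20 to −0.80 for *Angptl1*, −0.68 to −0.21 for *Angptl4*, 0.22 to 0.44 for *Angptl7* and 0.034 to 0.21 for *Angptl6*. Family members past the threshold numbered 1, but 2, with *Angptl1* added, in the Cyber-T type test, with the replicate block, with sex as a covariate and at an unadjusted p under 0.001, and 1 to 2 with a mouse left out (2 without Bmal1+/- replicate 1). No gene of the 5 lists or of the host list was called under any of the 17 alternatives. Over all probe sets, 31 were lower and 23 higher. These counts were 177 and 96 in the Cyber-T type test, 19 and 15 with all probe sets of the table, 16 and 11 without the intensity trend, and 93 and 59 at an unadjusted p under 0.001. With a mouse left out they were 22 to 34 lower and 13 to 23 higher, the latter 15 without Bmal1+/- replicate 2 or Bmal1-/- replicate 1 and 13 without Bmal1-/- replicate 3. The cause was not tested. Same-numbered mice deviated together with r of 0.078, −0.346 and 0.056, and differently numbered mice with r of −0.263 to 0.259. Deviations from the mean of only 3 mice are tied to each other, so that these values cannot settle whether the numbers pair the mice. The replicate block gave 34 lower and 20 higher. With it the SE was 0.098 for *Angptl8*, beside 0.178 in the main fit, and 0.115 for *Angptl6* in both. Other probe sets of a member could not be tried, since each has 1. With 3 mice per genotype and 1 male, sex could be fitted only through that mouse.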
